A study of Mus musculus with 24 samples.

Results

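The 9 genes described here code for protein parts of the plasma lipoproteins and for proteins that load lipid onto these particles or control its removal: Apoa1, Apoa2, Apoa4, Apoa5, Apob, Apoc3, Mttp, Angptl8 and Lipc. They were taken by gene name from tables that list 15741 mouse genes. All 9 had reads in each of 24 liver libraries and all 9 were tested in each of 21 comparisons, so none was lost to a filter on low values.

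The livers came from 24 mice in 8 groups of 3. A group was defined by genotype, diet and circadian time of death. Genotype was WT or a whole body GCN2 KO, GCN2 being the protein kinase that senses a shortage of amino acids. Diet was Control or LeuD, a diet that lacks leucine. Time was CT03 or CT15, that is, hour 3 or hour 15 of the circadian day. All mice, the controls included, were housed singly with free access to food in 12-h light and dark phases and first had 2 days of control diet. LeuD mice then changed diet as a dark phase began, 24 h before the lights went off for good, and every mouse was killed after 8 days of darkness. The gene was deleted in the whole animal and not in liver alone. The sources used here name no allele, strain, sex or age.

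The liver secretes triglyceride to other tissues in very-low-density lipoprotein. Apolipoprotein B, from Apob, forms the backbone of each particle, and the microsomal triglyceride transfer protein, whose large subunit is coded by Mttp, loads lipid onto it in the endoplasmic reticulum. In plasma, lipoprotein lipase removes the triglyceride: apolipoprotein C-III (Apoc3) and ANGPTL8 (Angptl8), an insulin-responsive hormone, restrain or redirect this removal, and apolipoprotein A-V (Apoa5) favours it. Apolipoproteins A-I and A-II (Apoa1, Apoa2) are the main proteins of high-density lipoprotein, apolipoprotein A-IV (Apoa4) travels on several particle classes and is made by intestine and, in rodents, by liver, and hepatic lipase (Lipc) trims remnants and high-density lipoprotein. Liver lipid genes are known to follow the time of day, through the clock and through feeding.

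The 5 genes on which the results turn are shown by the 250 bases before their start, 5′ to 3′ in the direction of the gene, from RefSeq promoters of GRCm38.p6. The windows are chr9:46268358-46268607 on the plus strand for Apoa5, chr3:138143419-138143668 on the minus strand for Mttp, chr9:21835260-21835509 on the plus strand for Angptl8, chr9:46240594-46240843 on the plus strand for Apoa4 and chr9:70952222-70952471 on the minus strand for Lipc. Capitals mark a match to 1 of 7 motifs that were searched on both strands.
Apoa5: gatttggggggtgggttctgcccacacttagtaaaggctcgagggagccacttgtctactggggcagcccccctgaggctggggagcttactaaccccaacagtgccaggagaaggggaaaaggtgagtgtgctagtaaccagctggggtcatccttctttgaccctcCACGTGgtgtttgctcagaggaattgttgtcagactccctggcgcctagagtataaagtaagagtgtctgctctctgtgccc
Mttp: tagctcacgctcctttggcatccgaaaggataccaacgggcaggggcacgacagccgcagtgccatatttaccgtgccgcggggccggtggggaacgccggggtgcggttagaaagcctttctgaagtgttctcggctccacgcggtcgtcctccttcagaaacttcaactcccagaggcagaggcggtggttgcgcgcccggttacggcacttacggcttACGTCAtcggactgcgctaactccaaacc
Angptl8: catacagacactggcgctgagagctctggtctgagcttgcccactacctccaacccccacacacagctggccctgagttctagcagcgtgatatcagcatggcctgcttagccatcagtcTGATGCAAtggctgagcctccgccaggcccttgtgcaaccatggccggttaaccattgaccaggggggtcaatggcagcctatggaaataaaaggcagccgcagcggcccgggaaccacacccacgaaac
Apoa4: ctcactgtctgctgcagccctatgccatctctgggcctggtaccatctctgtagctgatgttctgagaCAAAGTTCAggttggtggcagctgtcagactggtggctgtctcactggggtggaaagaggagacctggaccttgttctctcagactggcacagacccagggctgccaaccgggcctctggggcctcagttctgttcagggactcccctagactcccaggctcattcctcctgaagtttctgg
Lipc: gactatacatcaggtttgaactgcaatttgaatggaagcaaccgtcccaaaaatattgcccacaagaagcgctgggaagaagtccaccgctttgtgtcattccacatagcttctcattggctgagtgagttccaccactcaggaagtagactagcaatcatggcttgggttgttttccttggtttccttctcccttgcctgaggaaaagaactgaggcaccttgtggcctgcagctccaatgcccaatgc

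The 7 motifs were CACGTG, the E-box bound by clock factors, TTANGTAA, the D-box, TAGGTCA, the core bound by REV-ERB, TGTTTAC, bound by FOXO factors, TGATGNAA, a C/EBP-ATF response element, TGACGT, the core of the cyclic AMP response element, and CAAAGNNCA, bound by HNF4A. No matches overlapped. In Apoa5 the match was CACGTG, 82 bases before the start. In Mttp it was TGACGT on the opposite strand, with its first base in the window 29 before the start. Angptl8 held TGATGCAA, a match to TGATGNAA, 130 bases before the start, and Apoa4 held CAAAGTTCA, a match to CAAAGNNCA, at 182 bases. None of the 7 motifs was found in the 250 bases of Lipc. Of the other members, Apoa2 held TGTTTAC, Apob held CAAAGNNCA on the opposite strand, and Apoa1 held none. Apoc3 had no promoter entry, so 8 of 9 members were matched. Of 32851 RefSeq windows of the same 250 bases, 6.02% held CACGTG, 2.06% TTANGTAA, 2.23% TAGGTCA, 3.17% TGTTTAC, 3.45% TGATGNAA, 6.47% TGACGT and 5.49% CAAAGNNCA. These matches describe letters only, and binding was not measured.

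Each library held 34137121 to 44884200 reads in genes, and the 9 members together took 2.06% to 3.03% of them. The livers were checked against marker genes. Hepatocyte markers summed to 82760 to 178600 RPM (reads scaled to a common library total), and all 6 KO LeuD libraries (143100 to 178600) lay above the other 18 (at most 131800). Most of this sum was Alb, at 61400 to 153400 RPM, and no other measured hepatocyte marker exceeded 7798. Alb, Fgb, Hp and Ass1 were highest in a KO LeuD library, and Ttr, Cps1 and Serpina1c in a library of another group. The sum thus mainly describes Alb. Genes of pancreatic acinar cells exceeded 200 RPM in 5 libraries: 246 in KO Control CT03 replicate 3, 613 in KO Control CT15 replicate 1, 13770 in KO LeuD CT03 replicate 1, 7345 in KO LeuD CT15 replicate 3 and 4030 in WT LeuD CT15 replicate 1. Intestine also makes Apoa4, Apob and Mttp, so enterocyte markers were summed: 4 of 8 were measured, at 32.4 to 102 RPM in all, of which Fabp2 gave 27.6 to 97.5, while Vil1 reached 0.873 and Slc5a1 1.78. Reads over Eif2ak4, the gene of GCN2, were 287 to 349 normalized counts in WT and 243 to 462 in KO, so they do not check the genotype labels.

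Normalized counts are reads divided by a size factor for the library. Levels of single mice are given on 1 scale over all 24 libraries. A change is a log2 difference with its standard error (SE), from limma on log2(normalized count + 1), and a gene is called where its Benjamini-Hochberg adjusted p, over all genes tested, is under 0.05. Comparisons with a table of their own used that table's scaling. Because this is bulk tissue, fewer cells of a type and less RNA per cell cannot be told apart.

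Per kilobase of annotated exon, the 2 high-density lipoprotein proteins led the members. Apoa2 had a median of 429000 normalized counts per kilobase over the 24 libraries, and Apoa1 had 311600. Apoc3 followed with 50600, Apoa5 with 21720 and Apob with 13930. Apoa4 had 6412, Angptl8 3748, Lipc 2615 and Mttp 2074. Only Apoa1 and Apoc3 were neighbours in this order whose ranges over the 24 libraries did not overlap. Apoc3 still lay above Apoa5 within all 24 libraries, whereas Apoa4 lay above Angptl8 in 15 of 24 and Angptl8 above Lipc in 16 of 24.

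The members also differed in how much they varied between mice. Apob spanned 154877 to 261457 normalized counts, a 1.69-fold range, Apoc3 a 1.73-fold range and Lipc a 1.89-fold range. Apoa4 spanned 4013 to 46131, an 11.5-fold range, and Angptl8 spanned 357 to 24094, a 67.5-fold range. Within groups the pooled standard deviation (SD) was 0.17 on the log2 scale for Apob, 0.74 for Apoa4 and 1.34 for Angptl8. Mice of 1 group therefore differed widely in the last pair, and a change of a given size was harder to detect in them. The group KO LeuD CT15 had the highest mean log2 level for 7 of the 9 members, all but Apob and Lipc. How many of all genes were highest in that group was not counted, so no trait of the members is read from this. For Apoa2 the group means spanned 0.26, less than its pooled SD within groups of 0.30. For Apoa4 the mean of the unlogged counts was higher in KO Control CT03 (23136) than in KO LeuD CT15 (22579).

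**Figure D1:**
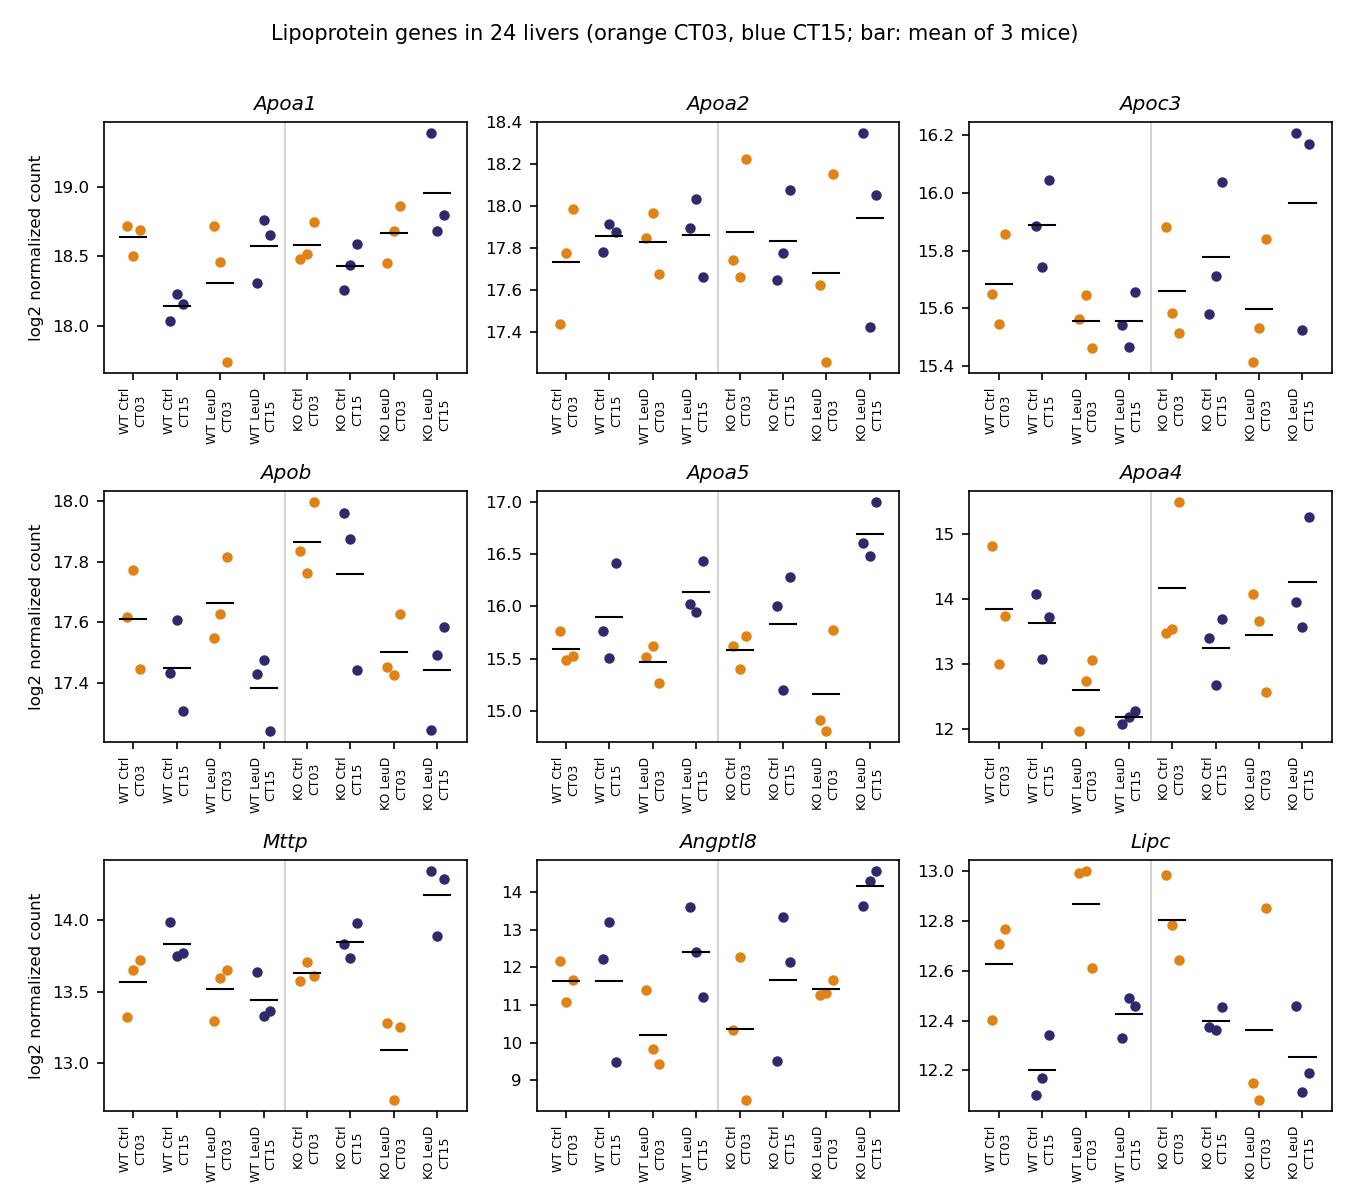
Log2 normalized count of the 9 members in 24 livers, 1 panel a gene, with the 8 groups on the horizontal axis, a point for each mouse, orange for CT03 and blue for CT15, and a bar at the mean of 3 mice. Angptl8 spans 67.5-fold over the 24 mice and Apob 1.69-fold, and the scale differs between panels.

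More members passed the test with time of day than with diet or genotype, and time also led over all genes. In the means over 4 comparisons, 24.9% of all genes passed for time, 13.9% for diet and 2.48% for genotype. Averaged over the 4 combinations of genotype and diet, in a fit of all 24 libraries, Apoa5, Mttp and Angptl8 rose from CT03 to CT15 and Lipc fell. These 4 of 9 members passed the test, 3 higher and 1 lower, beside 24.9% of all genes tested. The other 5, Apoa1, Apoa2, Apoa4, Apob and Apoc3, did not pass, with adjusted p between 0.179 for Apoc3 and 0.926 for Apoa1. Apoc3 passed only without KO LeuD CT15 replicate 2 (adjusted p = 0.0451).

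Apoa5, whose product favours plasma triglyceride removal, had a lowest value of 28789, a median of 47011 and a highest of 55877 normalized counts in the 12 CT03 mice. In the 12 CT15 mice it had 37756, 73186 and 130318. At CT15, 9 of 12 mice lay above every CT03 mouse. Apoa5 rose by 0.69 (SE 0.14) on the log2 scale, or 1.61-fold, with adjusted p = 0.00131 by limma.

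Mttp, whose product lipidates apolipoprotein B, had a lowest value of 6861, a median of 12293 and a highest of 13514 in the 12 CT03 mice, and 10302, 14280 and 20734 in the 12 CT15 mice. Here too 9 of 12 CT15 mice lay above every CT03 mouse, and the others were the WT LeuD mice, at 10302 to 12727. In the mean Mttp rose by 0.37 (SE 0.08), or 1.30-fold, with adjusted p = 0.00175 by limma. The change was uneven between the pairs. It was 0.27 (SE 0.14) in WT Control and 0.21 (SE 0.13) in KO Control, both without overlap. In WT LeuD it was -0.07 (SE 0.13) and in KO LeuD 1.07 (SE 0.21).

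Angptl8, whose product restrains lipoprotein lipase, had a lowest value of 357, a median of 2506 and a highest of 4965 in the CT03 mice, and 714, 7471 and 24094 in the CT15 mice. At CT15, 7 of 12 mice were above all CT03 mice, but 2 were under 1000. Angptl8 rose by 1.56 (SE 0.49), or 2.95-fold, with adjusted p = 0.0239 by limma. Angptl8 lies within Dock6, on the opposite strand, with no exon shared, and the library kit does not mark strand. Dock6 itself had 501 to 1656 normalized counts.

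Lipc, the gene of hepatic lipase, went the other way. It had a lowest value of 4337, a median of 6835 and a highest of 8188 in the CT03 mice, and 4389, 5226 and 5756 in the CT15 mice. The 2 ranges overlapped, and the lowest mouse of all was a KO LeuD CT03 mouse. Lipc fell by 0.34 (SE 0.08), with adjusted p = 0.00497 by limma.

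All 4 calls held when each of the 24 libraries was left out in turn, and when the 5 libraries with acinar RNA were left out together. Without those 5 the changes were 0.63 for Apoa5, 0.36 for Mttp, 1.38 for Angptl8 and -0.37 for Lipc.

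**Figure D2:**
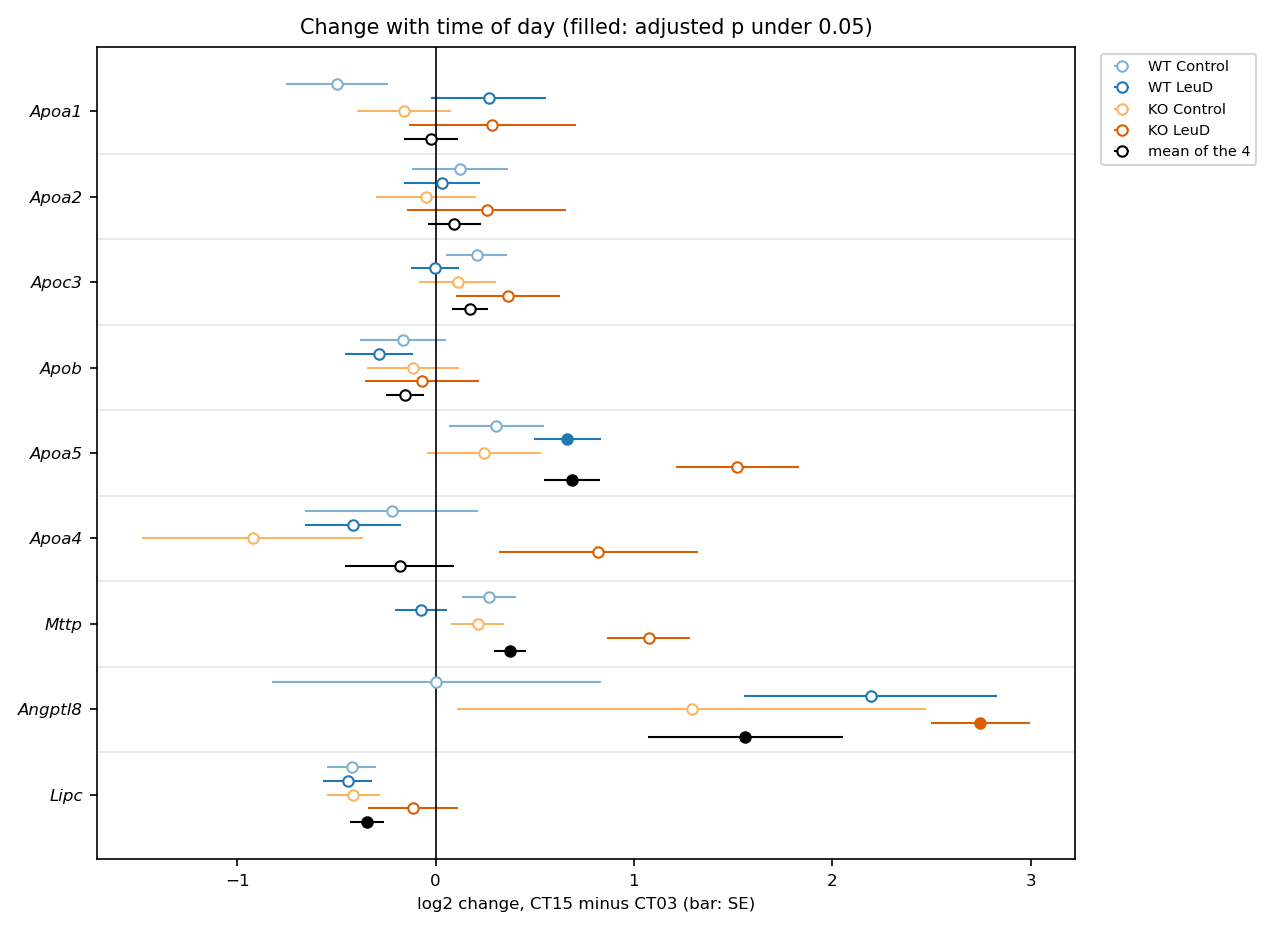
Log2 change from CT03 to CT15 (horizontal axis, bars are SE) of the 9 members in each combination of genotype and diet (3 mice a group) and as the mean of the 4 (12 mice a group), with filled points where the adjusted p is under 0.05. The filled mean points are those of Apoa5, Mttp and Angptl8, on the right of 0, and Lipc, on the left.

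Within single combinations of genotype and diet, with 3 mice against 3, few members passed. In WT LeuD, 1 of 9 members was called, beside 9.61% of all genes, and in KO LeuD 1 of 9, beside 0.805%. On the Control diet no member was called, beside 1.42% of genes in WT and 0.0407% in KO. There, 1 member in each genotype, Lipc, had an unadjusted p under 0.05. So did 2564 of 14967 genes in WT and 1819 of 14745 in KO. EdgeR called no member in either, and its share of all genes was not counted.

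In WT LeuD the called gene was Apoa5. Its normalized counts were 46956, 50551 and 39450 at CT03 and 66595, 63336 and 88528 at CT15. Every CT15 mouse was above every CT03 mouse. Apoa5 rose by 0.66 (SE 0.17), adjusted p = 0.0456 by limma, and this call was lost when any 1 of the 6 libraries was left out (adjusted p 0.0700 to 0.125). Its p was also over the threshold in the fit of all 24 libraries, at 0.198.

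In KO LeuD the called gene was Angptl8. It had 2459, 2552 and 3241 normalized counts at CT03 and 12727, 20311 and 24094 at CT15, and the groups stood far apart. Angptl8 rose by 2.75 (SE 0.25), or 6.71-fold, adjusted p = 0.00452 by limma. The call held without each of the 6 libraries in turn (adjusted p 0.00544 to 0.0247). It was lost in the fit of all 24 libraries, which shares 1 estimate of the spread over all groups (adjusted p = 0.0893), and without both acinar libraries of these groups (2.48, adjusted p = 0.0927), which leaves 2 mice against 2.

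In that same KO LeuD pair, Apoa5 and Mttp also differed without overlap. Apoa5 had 30892, 28789 and 55877 at CT03 and 99730, 91558 and 130318 at CT15, a change of 1.52 (SE 0.31) with adjusted p = 0.0716. Mttp had 9961, 6861 and 9737 at CT03 and 20734, 15158 and 20006 at CT15, a change of 1.07 (SE 0.21) with adjusted p = 0.0643. Both just missed the threshold by limma. Both passed in the authors' deposited table, with adjusted p = 3.22e-05 for Apoa5 and 1.67e-04 for Mttp, where 3 members passed beside 5.68% of genes, and both passed in the fit of all 24 libraries (0.00226 and 0.000415) and without KO LeuD CT03 replicate 3 (0.0140 and 0.0390). Hepatocyte markers, most of the sum being Alb, summed to 143100 to 152400 RPM at CT03 and 160500 to 178600 at CT15 in these groups. The part of these markers in the changes was not tested.

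Angptl8 was uneven in the other pairs. In WT LeuD it had 2688, 912 and 684 at CT03 and 12568, 5435 and 2365 at CT15, a change of 2.19 (SE 0.64) with adjusted p = 0.0669, which passed without CT03 replicate 1 (0.0392) or CT15 replicate 3 (0.0247). In KO Control it had 1289, 4965 and 357 at CT03 and 732, 10311 and 4511 at CT15, a change of 1.29 (SE 1.18). In WT Control it had 4603, 2146 and 3243 at CT03 and 4750, 9508 and 714 at CT15, a change near 0 (0.004, SE 0.83). On the Control diet the mice of a single group thus spanned more than the gap between the group means.

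Lipc was lower at CT15 without overlap in 3 of the 4 pairs. In WT Control it had 5412, 6686 and 6985 at CT03 and 4389, 4605 and 5188 at CT15, a change of -0.42 (SE 0.13) with adjusted p = 0.15. The change was -0.44 (SE 0.12, adjusted p = 0.0605, or 0.0220 without CT03 replicate 3) in WT LeuD and -0.41 (SE 0.13, adjusted p = 0.304) in KO Control. In KO LeuD it was -0.11 (SE 0.22), where CT03 replicate 3 had 7400 against 4543 and 4337 in its group.

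In the time comparisons, 3 of 9 members did not overlap in WT Control, 3 in WT LeuD, 2 in KO Control and 3 in KO LeuD, beside 23.9%, 31.3%, 19.9% and 21.9% of all genes. Among the members that never passed this test, Apob and Apoa1 each had 1 pair without overlap. Apob was at 191630 to 230929 at CT03 and 154877 to 182116 at CT15 in WT LeuD (change -0.28, SE 0.17). Apoa1 was at 370869 to 432082 at CT03 and 268061 to 307757 at CT15 in WT Control, a change of -0.50 (SE 0.26) with adjusted p = 0.368 by limma and 0.00149 in the authors' deposited table, where 1 member passed beside 6.2% of genes. The authors' deposited table for WT LeuD called Apoa5 and Lipc, 2 members, beside 13.7% of genes.

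Whether the time effect itself depended on diet or genotype was tested as a difference of differences, over 12 libraries. No member was called for diet in WT (beside 0.00694% of genes) or in KO (beside 0%), nor for genotype on Control (beside 0.0278%) or on LeuD (beside 0.0208%). An unadjusted p under 0.05 was reached by 0, 2, 0 and 2 members. Of all genes, 954 of 14409, 934 of 14415, 720 of 14398 and 1355 of 14399 reached it. EdgeR called no member in any of the 4, and its share of all genes was not counted. The lowest p was that of Mttp between genotypes on LeuD. Its time change was -0.07 in WT LeuD and 1.07 in KO LeuD, a difference of 1.15 (SE 0.25, 95% interval 0.60 to 1.71, unadjusted p = 0.000669, adjusted p = 0.292). For Angptl8 the same difference was 0.56 (95% interval -1.16 to 2.28), so neither a like nor a much larger rise in KO could be told from these mice.

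The time effect was also averaged over 1 factor at a time in the fit of 24 libraries, an analysis added after the data had been seen. In LeuD mice (6 against 6), 3 members were called beside 14.9% of genes: Apoa5 rose by 1.10 (adjusted p = 0.000869), Mttp by 0.50 (adjusted p = 0.00438) and Angptl8 by 2.47 (adjusted p = 0.0196). In Control mice 1 member was called beside 8.66%: Lipc fell by 0.42 (adjusted p = 0.0330). In KO mice 2 members were called beside 13.6%: Apoa5 rose by 0.89 (adjusted p = 0.00538) and Mttp by 0.65 (adjusted p = 0.000793). In WT mice 1 member was called beside 11.1%: Lipc fell by 0.43 (adjusted p = 0.0236). The difference between LeuD and Control mice called no member (0% of genes), and neither did that between KO and WT mice (0.0347%), so the called sets are not shown to differ.

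Other genes of lipoprotein metabolism, from 5 lists, moved with time as follows, in the mean over the 4 combinations, where 24.9% of all genes were called. Of 17 genes of apolipoprotein B lipidation and secretion, 4 rose and 2 fell. Ces1d, a carboxylesterase of the liver, rose by 1.27 (SE 0.25), and Sar1b, the small GTPase of the coat that carries cargo out of the endoplasmic reticulum, rose by 0.53 (SE 0.08). Sort1, the sorting receptor sortilin, fell by 1.22 (SE 0.14), and Apobec1, the enzyme that edits Apob mRNA, fell by 0.36 (SE 0.09). The median over this list was 0.07, against 0.01 over all genes tested.

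Of 8 lipases, lipid transfer proteins and their regulators, 1 rose and 1 fell: Lipg, endothelial lipase, rose by 1.40 (SE 0.27) and Lpl, lipoprotein lipase, fell by 0.97 (SE 0.21). Of 11 receptors and efflux genes, 3 rose and 3 fell. Lsr, the lipolysis-stimulated receptor, rose by 0.29 (SE 0.07), and Scarb1, the receptor for high-density lipoprotein, fell by 0.33 (SE 0.10). Of 19 transcription regulators, 4 rose and 2 fell. Nr1d1, which codes for the clock repressor REV-ERB alpha, fell by 2.53 (SE 0.32). Ppara, the fatty acid receptor, rose by 0.51 (SE 0.09). None of the 8 measured genes among 9 other apolipoproteins passed.

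Diet changed no member past the threshold. In WT mice no member was called at CT03 (beside 2.24% of genes) or at CT15 (beside 0.186%). In KO mice none was called at CT03 (beside 0%) or at CT15 (beside 0.0202%). At an unadjusted p under 0.05, limma had 2, 3, 1 and 2 members in these 4 comparisons. Of all genes, 2618 of 14729, 1954 of 15073, 2173 of 14888 and 2376 of 14834 met this looser rule. EdgeR called no member in any of the 4, and its share of all genes was not counted. Averaged over the 4, none was called either, beside 13.9% of genes, and edgeR called none. In that mean 1 member had an unadjusted p under 0.05, beside 4017 of 14420 genes.

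Apoa4 had the lowest p of the members in WT mice at CT15. It had 17370, 8675 and 13527 normalized counts on Control and 4293, 4632 and 4981 on LeuD. Every LeuD mouse was below every Control mouse, and the LeuD mice lay close together. The change was -1.45 (SE 0.23), adjusted p = 0.0692 by limma, and it passed without WT Control CT15 replicate 2 (adjusted p = 0.0426). In the authors' deposited table it was -1.51 with adjusted p = 6.18e-09, the 1 member called there beside 3.7% of genes.

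In the other diet pairs Apoa4 did not pass. In WT at CT03 it had 28849, 8215 and 13637 on Control and 4013, 6823 and 8593 on LeuD, a change of -1.26 (SE 0.43, adjusted p = 0.176). In KO at CT03 it had 11357, 11919 and 46131 on Control and 17395, 13014 and 6096 on LeuD, a change of -0.73 (SE 0.60). In KO at CT15 it had 10786, 6518 and 13254 on Control and 15893, 12224 and 39619 on LeuD, a change of 1.01 (SE 0.45, adjusted p = 0.329). Averaged over the times, in the analysis added later, the diet change was -1.36 in WT mice (adjusted p = 0.0679) and 0.14 in KO mice, with no member called in either (beside 2.31% and 17% of genes). The difference between these 2 changes was 1.502 (95% interval 0.36 to 2.65, adjusted p = 0.140), with no member called beside 1.49% of genes.

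Angptl8 varied in sign between the diet comparisons. Its change with LeuD was -1.42 (SE 0.47, adjusted p = 0.164) in WT at CT03. In WT at CT15 it was 0.77 (SE 0.93), smaller than its SE. In KO it was 1.05 (SE 0.82) at CT03 and 2.497 (SE 0.85, adjusted p = 0.227) at CT15, where the LeuD mice (12727 to 24094) were all above the Control mice (732 to 10311). Without WT LeuD CT03 replicate 1 the WT CT03 difference was -2.01 and passed (adjusted p = 0.0219).

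The remaining members did not pass with diet either. Without overlap were 0 of 9 members in WT at CT03, 4 in WT at CT15, 2 in KO at CT03 and 3 in KO at CT15, beside 24%, 18.9%, 19.2% and 23% of all genes. Mttp in WT at CT15 was 13787 to 16247 on Control and 10302 to 12727 on LeuD (change -0.39, SE 0.13, adjusted p = 0.259), and in KO at CT03 12197 to 13370 on Control and 6861 to 9961 on LeuD (change -0.54, SE 0.18, adjusted p = 0.293). Neither pair overlapped and neither passed. Apoa5 in KO at CT15 was 37756 to 79778 on Control and 91558 to 130318 on LeuD, without overlap (change 0.85, SE 0.31, adjusted p = 0.255). Apoa1 at CT15 was higher on LeuD without overlap in WT (change 0.44, SE 0.23, adjusted p = 0.459) and in KO (change 0.52, SE 0.32, adjusted p = 0.465). Apoc3 in WT at CT15 was lower on LeuD without overlap (change -0.34, SE 0.14, adjusted p = 0.365), and so was Apob in KO at CT03 (change -0.37, SE 0.28, adjusted p = 0.556). None of these passed by limma or edgeR. Lipc in KO at CT03 had a change of -0.45 (SE 0.22, adjusted p = 0.398), which became -0.69 and passed (adjusted p = 0.0399) without KO LeuD CT03 replicate 3. For Apoa2 the 4 changes ran from -0.20 to 0.10, all smaller than their SE.

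Among the listed genes, 3 of the 8 lipases, transfer proteins and regulators were called for diet in WT at CT03, beside the 2.24% of all genes. Angptl4, a lipoprotein lipase inhibitor, rose by 2.02 (SE 0.16), while Lipg fell by 1.44 (SE 0.27) and Pltp, the phospholipid transfer protein, fell by 1.17 (SE 0.24). In WT at CT15 only Pltp of that list was called, beside 0.186% of all genes, and it fell by 1.55 (SE 0.21). In the mean over the 4 diet comparisons Pltp fell by 0.97 (SE 0.16) and Lcat, which esterifies cholesterol on high-density lipoprotein, rose by 0.34 (SE 0.10). In the same mean, where 13.9% of all genes were called, 2 of 17 lipidation genes rose (Smlr1 and Tm6sf2) and 2 fell (Mia2 and Aadac), 2 of 11 receptor genes fell, Scarb1 among them, and of the 8 other apolipoproteins measured Apoc1 fell by 0.39 (SE 0.10).

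Between genotypes, 1 member passed the threshold, in 1 of 4 settings. In LeuD mice at CT15, Apoa4 was called, 1 of 9 members, beside 1.89% of genes. On the Control diet no member was called at CT03 (beside 0.0136% of genes) or at CT15 (beside 0.0798%), nor was any in LeuD mice at CT03 (beside 0.0416%). In those 3 comparisons 0, 0 and 1 members had an unadjusted p under 0.05 by limma. Of all genes, 1200 of 14674, 825 of 15031 and 1976 of 14420 did. EdgeR called no member there, and its share of all genes was not counted. In the mean over the 4 comparisons no member was called, beside 2.48% of genes, and none by edgeR. Apoa4 was the 1 member at an unadjusted p under 0.05 (change 0.72, adjusted p = 0.168), beside 2549 of 14420 genes.

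At CT15 on LeuD, Apoa4 had 4293, 4632 and 4981 normalized counts in WT and 15893, 12224 and 39619 in KO. Every KO mouse was above every WT mouse, and the KO mice differed more than 3-fold among themselves. Apoa4 was higher in KO by 2.09 (SE 0.37), or 4.27-fold, with adjusted p = 0.0345 by limma. The call was lost without KO LeuD CT15 replicate 1 or without any 1 of the 3 WT mice (adjusted p up to 0.118). KO replicate 3, the highest, and WT replicate 1 are acinar libraries. Without them the change was 1.54 with adjusted p = 0.0505.

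Beside these values, the 4 enterocyte markers measured summed to 61.1, 36.1 and 33.9 RPM in KO replicates 1, 2 and 3 and to 34.8, 44.0 and 56.1 in the WT mice. The hepatocyte marker sum, most of it Alb, was higher in KO LeuD at CT15 (160500 to 178600) than in WT (109100 to 131800). The part of either marker list in the result was not tested. Exons of Apoa4 overlap the antisense gene model Gm47528, which had 10.4 to 119 normalized counts over all libraries. On LeuD at CT15, Gm47528 had 10.4 to 29.5 in WT and 46.1 to 119 in KO. The part of this overlap in either gene was not tested.

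On LeuD at CT03 Apoa4 was 4013, 6823 and 8593 in WT and 17395, 13014 and 6096 in KO, a change of 0.85 (SE 0.42, adjusted p = 0.406). Without KO LeuD CT03 replicate 3, the lowest KO mouse, it was 1.29 with adjusted p = 0.0368. Averaged over both times in the analysis added later, Apoa4 was higher in KO by 1.47 (SE 0.39, adjusted p = 0.0243) on LeuD, the 1 member called beside 8.59% of genes. On Control it differed by -0.03 (95% interval -0.84 to 0.78), with no member called beside 0.264% of genes. The diet effect differed between genotypes by 2.47 (95% interval 1.24 to 3.70) at CT15, unadjusted p = 0.000950 and adjusted p = 0.112. At CT15 no member passed that test, beside 0.104% of genes, and 3 had an unadjusted p under 0.05, beside 1755 of 14387 genes. At CT03 none passed, beside 0%, and 2 had an unadjusted p under 0.05, beside 1881 of 14408 genes. EdgeR called none at either time, and its share of all genes was not counted. Without KO LeuD CT03 replicate 3, Lipc passed the limma test of this difference at CT03 (difference -0.93, adjusted p = 0.0297).

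The other members on LeuD at CT15 were read beside Apoa4. Mttp was 12727, 10302 and 10528 in WT and 20734, 15158 and 20006 in KO, a change of 0.73 (SE 0.16, adjusted p = 0.0621). Angptl8 was 12568, 5435 and 2365 in WT and 12727, 20311 and 24094 in KO, a change of 1.76 (SE 0.52, adjusted p = 0.124). Apoa5 was 66595, 63336 and 88528 in WT and 99730, 91558 and 130318 in KO, a change of 0.56 (SE 0.22, adjusted p = 0.220). In each of the 3 genes all KO mice lay above all WT mice in normalized counts, and none passed. For Angptl8 this rested on the scaling. KO replicate 1 (12727) lay just above WT replicate 1 (12568), but below it in RPM (274 against 306). With Apoa4, 4 of 9 members were without overlap in normalized counts, where 24.6% of all genes did not overlap either. Mttp passed in the fit of all 24 libraries (adjusted p = 0.0138) and without KO LeuD CT15 replicate 2 (0.0304). These KO mice are the same animals as in the time and diet comparisons of KO LeuD CT15, so the results are not independent of those.

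At CT03 on LeuD, Mttp lay the other way. It had 10055, 12389 and 12874 in WT and 9961, 6861 and 9737 in KO, a change of -0.42 (SE 0.18, adjusted p = 0.370), the 1 member of 9 without overlap there, beside 19.4% of all genes. Lipc changed by -0.51 (SE 0.23, adjusted p = 0.375) in the same mice, and by -0.75 (adjusted p = 0.0204) without KO LeuD CT03 replicate 3. In the listed genes no genotype comparison within 1 diet and time called any, and in the mean over the 4 only Vmp1, an endoplasmic reticulum protein of lipoprotein release, rose (0.31, SE 0.08, adjusted p = 0.0406).

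**Figure D3:**
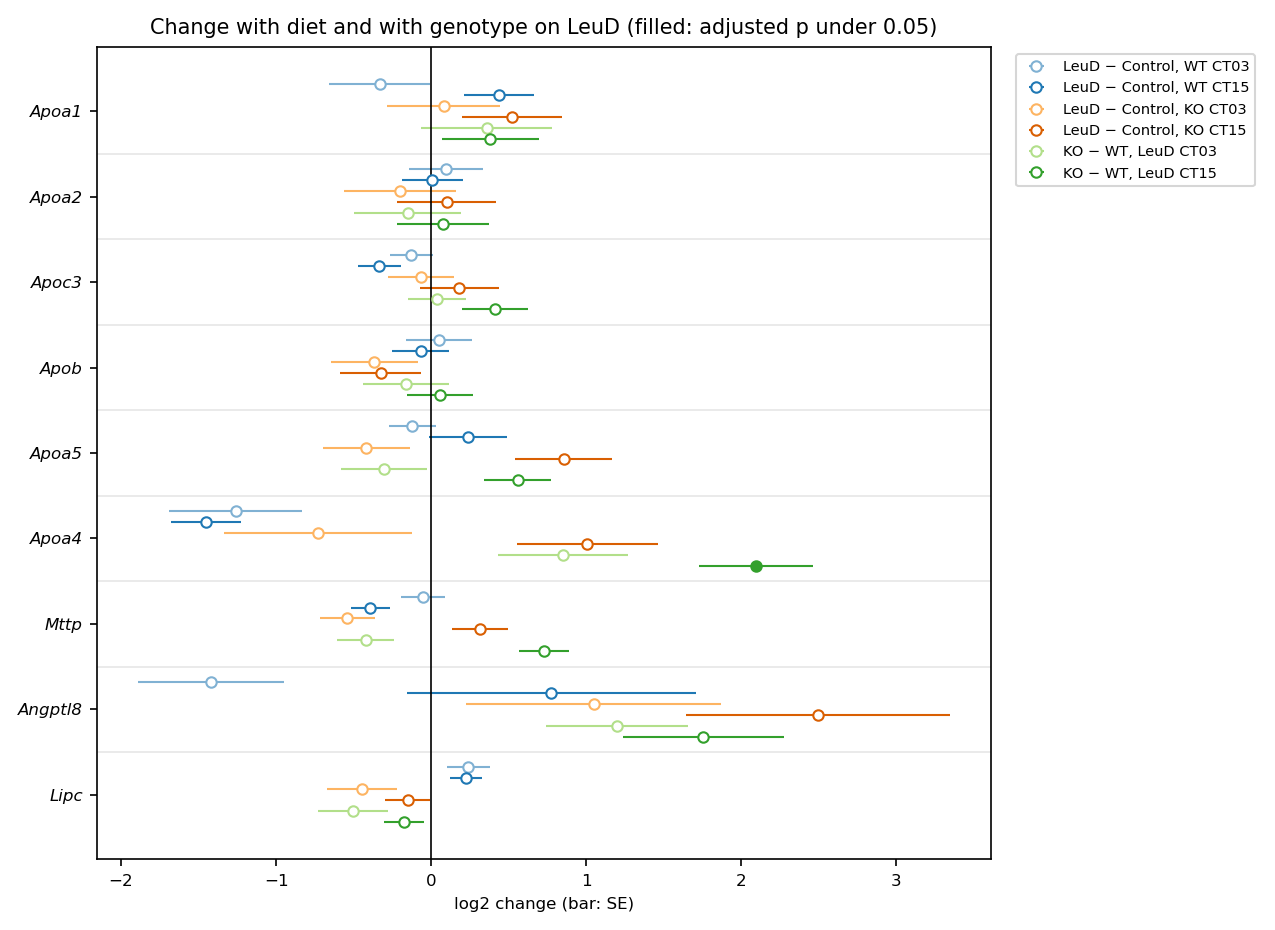
Log2 change of the 9 members with diet (LeuD minus Control, 4 pairs of groups) and with genotype on LeuD (KO minus WT, 2 pairs), horizontal axis, 3 mice a group, bars SE, filled where the adjusted p is under 0.05. The 1 filled point is Apoa4 in KO against WT on LeuD at CT15, at 2.09.

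Apoa1, Apoc3, Apoa4 and Apoa5 are neighbours on chromosome 9, in that order, but did not move as a block. Over the 24 libraries the correlation of log2 levels was 0.60 between Apoa5 and Apoc3, 0.18 between Apoa5 and Apoa4, 0.32 between Apoa4 and Apoc3, and 0.16 between Apoa1 and Apoa4. Among all 36 pairs of members, Apoa5 with Mttp had the highest r, 0.64, which was 0.20 after group means were removed. The libraries share groups and scaling, so these values are descriptions.

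For each member, the 3 genes most like it over the 24 libraries were found among 11944 genes by Pearson r of log2 levels, other members left out. Angptl8 was most like Slc10a2 (r = 0.90), Tmem41b (0.84) and Mid1ip1 (0.84). For Angptl8 and Slc10a2, r was 0.83 after group means were removed and 0.87 over the 18 libraries without KO LeuD. Mttp was most like Sar1b (0.89) and Tkfc (0.86). For Mttp and Sar1b, r was 0.74 after group means were removed and 0.68 without KO LeuD, so part of this likeness lies between groups.

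Sar1b and Mttp both had their highest and lowest mice in KO LeuD. Sar1b had 4581 to 8056 normalized counts in KO LeuD CT03 and 10341 to 14490 in KO LeuD CT15. Slc10a2 had 621 to 897 in KO LeuD CT03 and 1848 to 2489 in KO LeuD CT15, against 121 to 1267 in all other groups. By normalized count the 3 KO LeuD CT15 mice were thus the 3 highest of 24 for Slc10a2 as for Angptl8. For Angptl8 this order did not hold in RPM.

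**Figure D4:**
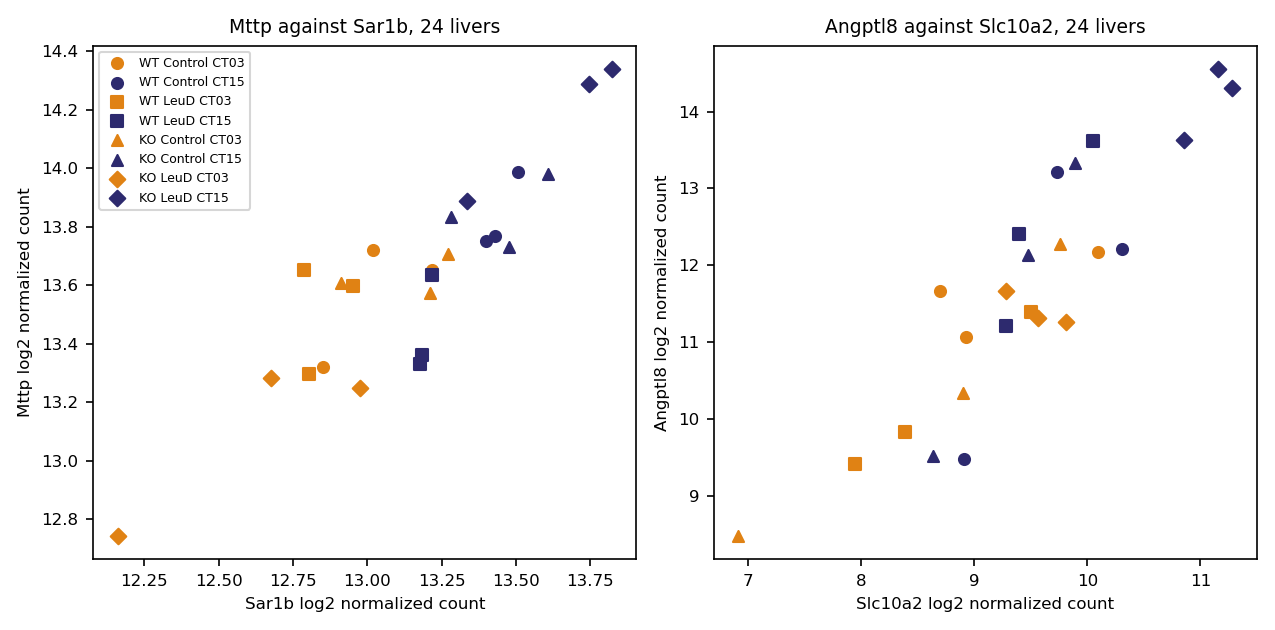
Log2 normalized count of Mttp against Sar1b (left) and of Angptl8 against Slc10a2 (right) in 24 livers, a point for each mouse, with shape for genotype and diet and colour for time (orange CT03, blue CT15). The Pearson r is 0.89 on the left and 0.90 on the right. On this scale the 3 KO LeuD CT15 mice are the highest of the 24 for Angptl8 and for Slc10a2.

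For the other members, Apoa5 was most like Plce1 (0.84), Dnajb6 (0.84) and Wdr61 (0.83), and Lipc like Rdh7 (0.88), D630039A03Rik (0.86) and Gm16548 (0.85). Apob was most like Msi2 (0.88), Wdr26 (0.88) and Ppp2r3a (0.85), and Apoc3 like Ndufa11 (0.81), Uqcr11 (0.81) and Ndufs5 (0.79). Apoa2 was most like Apoc4 (0.81), Pih1d1 (0.79) and Fxyd1 (0.79), Apoa1 like Arpc4 (0.73), Tnfrsf12a (0.72) and Ccnd1 (0.68), and Apoa4 like Rabl3 (0.78), Sulf2 (0.77) and Psmd6 (0.74).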

How the data were processed

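Liver RNA of 24 mice was sequenced after oligo(dT) enrichment, per the labels' protocols. The authors deposited 10 tables, each with normalized counts (a signal: reads divided by a size factor), a log2 fold change and a p-value with its adjusted value for 1 pair of groups. The submitters' processing notes name build GRCm39, DESeq and DESeq2, Subread 1.5.2 with featureCounts, STAR 2.5.2b and Trimmomatic 0.36. The sources used here state neither their settings nor the gene annotation.

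In the columns used for it, each normalized count was a whole multiple of 1 value per library and table (100% within 0.01), so reads were recovered. They were the same in all 44 pairs of tables that were compared for a shared library. Not every column entered this recovery. Each deposited comparison was tested in its own table by limma 3.58.1 (intensity trend, R 4.3.3) on log2(normalized count + 1). Genotype on LeuD, differences of effects (genes averaging at least 10) and means over 4 comparisons used recovered reads on 1 median-ratio scale. All tests were 2-sided, and the scripts were tested on simulated data.

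Named were all 9 members, up to 4 called genes of each list by lowest p, genes overlapping a member, and the 3 genes most like each member. A few genes that this rule names are not reported here. Members and lists were chosen with earlier results of these data known. Replicates are labelled as biological. Mice with the same replicate number in 2 groups were not treated as pairs. A check on expression levels found no pairing by its rule, but with 3 mice a group it cannot exclude pairing. Exon lengths and overlaps came from GENCODE of GRCm38 and may differ from the annotation used for counting. Alternatives included edgeR 4.0.16, TMM scaling, a pseudocount of 10, a minimum mean of 50 and leaving out each library.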

Additional observations from a re-analysis of the deposited data

How the results depend on the processing

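Of 21 counts of called members, 10 were the same under all alternatives run for them, and all of these were counts of 0. Each count above 0 moved under some alternative: time in WT LeuD, time in KO LeuD, genotype on LeuD at CT15 and the mean time effect. Scaling by TMM, a pseudocount of 10, a mean of at least 50 and edgeR moved no count. The share of all genes called was not counted for these alternatives. Nor was it counted for the fit of all 24 libraries as an alternative, for libraries left out or for the replicate block. Counts of members under them are therefore not set against all genes. For the authors' adjusted p and for parts of the mice the shares are given above. By the authors' deposited adjusted p the count became 1 for time in WT Control, 2 for time in WT LeuD, 3 for time in KO LeuD and 1 for diet in WT at CT15. In the fit of all 24 libraries it became 0 for time in WT LeuD, 2 for time in KO LeuD (Apoa5 and Mttp in place of Angptl8) and 2 for genotype on LeuD at CT15. Without the acinar libraries it became 0 for time in WT LeuD, 0 for time in KO LeuD and 0 for genotype on LeuD at CT15. With 1 library left out, the count ran from 0 to 2 for time in WT LeuD, 1 to 3 for time in KO LeuD, 0 to 1 for diet in WT at CT03, in WT at CT15 and in KO at CT03, 0 to 2 for genotype on LeuD at CT03 and at CT15, 0 to 1 for diet by genotype at CT03, and 4 to 5 for the mean time effect. KO LeuD CT03 replicate 3 was the library whose absence raised time in KO LeuD to 3, diet in KO at CT03 to 1, genotype on LeuD at CT03 to 2 and diet by genotype at CT03 to 1. In part of the mice only, an alternative chosen after seeing the data, the mean time count was 3 in LeuD mice, 1 in Control mice, 1 in WT mice and 2 in KO mice, and the mean genotype count was 1 in LeuD mice.

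Of 12 pairs of groups, none had all same-numbered mice deviating together (r from -0.502 to 0.507, all over 0.1 required), and in none did all 6 mice correlate best with their own number. With a replicate block, 2 of 21 counts moved: diet in WT at CT03 to 1 (Angptl8, adjusted p = 0.0423) and genotype on LeuD at CT15 to 0 (Apoa4, adjusted p = 0.0620). In WT LeuD the block kept 1 call for time but lost Apoa5 (adjusted p = 0.121) and gained Angptl8. Of 1793 alternative values for 102 changes of single members, 1752 kept their direction and side of the threshold, 17 lost and 24 gained a call, and 0 reversed. A further 87 changes were smaller than their SE and were not followed, and the sign printed for any of them is not a result.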
